A study of Mus musculus with 4 samples.

Results

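The Period genes Per1, Per2 and Per3 and the cryptochrome genes Cry1 and Cry2 are the repressor genes of the circadian clock, and they are described here by the NR1D1 peaks around them in mouse aortic smooth muscle cells. NR1D1 (REV-ERB alpha) is a nuclear receptor that represses transcription with a corepressor. Its chromatin sites were mapped by CUT&Tag, which sequences the DNA that an antibody-guided transposase cuts out next to the protein. All peaks that overlapped the RefSeq span of any of the 5 genes or the 50 kb on either side were taken, which gave 8 of the 8816 peaks in the vasostatin-2 list and 12 of the 7377 peaks in the PBS list. The cells were wild-type (WT) primary vascular smooth muscle cells grown from mouse aorta, and they received either vasostatin-2, a fragment of the secretory protein chromogranin A, or the buffer PBS (phosphate-buffered saline) for 24 h. Both NR1D1 libraries carry the same batch label, and no age, sex or number of animals was given in the sources used here. The matching IgG libraries were not used here. Each treatment has 1 NR1D1 library, so there is no replicate error, no test of vasostatin-2 was possible, and every interval covers counting error only. Peaks of NR1D1 do not measure expression, so the cell type in the labels was not checked against marker genes.

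In the mouse clock, CLOCK and BMAL1 switch on the Per and Cry genes through E-boxes, and PER and CRY proteins return to the nucleus and inhibit that pair. The REV-ERB and ROR receptors form a second loop and compete for a shared element, the REV-ERB and ROR response element, whose core is a nuclear receptor half-site preceded by a T. CRY1 and CRY2 are the direct inhibitors of CLOCK and BMAL1. PER1 and PER2 are their partners and carriers, and PER3 modulates the loop without being required for it. Per genes also respond to cAMP through a cAMP response element and to the D-box factors. In mouse cells Cry1 is known to hold REV-ERB and ROR response elements in an intron, which delay its phase.

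The promoters listed by RefSeq (build GRCm38.p6, the assembly of mm10) show the letters that lie under or beside these peaks. Each is 300 bases long, from 250 bases before a transcript start to 50 after it. The table held 5 such windows for 4 of the genes, and Per2 was not among them. The sequences below run 5′ to 3′ along the strand of the gene, with the motifs found in capitals. They are the first Per1 promoter (chr11:69098699-69098998, plus strand), which lay under a peak in the PBS list alone; the Cry1 promoter (chr10:85185005-85185304, minus strand), likewise; the Cry2 promoter (chr2:92434020-92434319, minus strand), which lay under a peak in both lists; and the Per3 promoter (chr4:151044616-151044915, minus strand), which lay under none.
Per1: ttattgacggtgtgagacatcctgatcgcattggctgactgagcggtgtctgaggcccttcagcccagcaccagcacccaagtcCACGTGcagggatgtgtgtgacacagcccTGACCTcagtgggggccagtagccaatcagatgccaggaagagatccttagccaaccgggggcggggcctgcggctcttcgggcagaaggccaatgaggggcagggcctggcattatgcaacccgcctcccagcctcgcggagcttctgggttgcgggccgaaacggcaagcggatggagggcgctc
Cry1: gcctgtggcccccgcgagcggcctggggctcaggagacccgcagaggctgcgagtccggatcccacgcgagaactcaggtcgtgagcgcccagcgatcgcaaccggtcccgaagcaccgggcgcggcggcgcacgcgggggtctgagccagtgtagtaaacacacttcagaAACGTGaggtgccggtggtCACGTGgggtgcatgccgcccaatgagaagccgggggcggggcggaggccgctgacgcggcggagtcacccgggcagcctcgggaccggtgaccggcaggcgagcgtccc
Cry2: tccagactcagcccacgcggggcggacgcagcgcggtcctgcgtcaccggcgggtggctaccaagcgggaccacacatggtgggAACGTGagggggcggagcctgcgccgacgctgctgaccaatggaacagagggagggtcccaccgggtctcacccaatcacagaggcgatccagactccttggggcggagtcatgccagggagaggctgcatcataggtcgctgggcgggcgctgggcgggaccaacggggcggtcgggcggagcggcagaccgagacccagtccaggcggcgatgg
Per3: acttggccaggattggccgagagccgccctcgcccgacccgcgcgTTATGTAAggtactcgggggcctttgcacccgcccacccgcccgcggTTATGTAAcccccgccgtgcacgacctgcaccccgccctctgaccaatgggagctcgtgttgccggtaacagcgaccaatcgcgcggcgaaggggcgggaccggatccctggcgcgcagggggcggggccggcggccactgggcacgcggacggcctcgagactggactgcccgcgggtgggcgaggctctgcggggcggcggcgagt

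The motifs searched on both strands began with AGGTCA, the half-site that nuclear receptors bind. The core of the REV-ERB and ROR element, TAGGTCA, holds that half-site within it. The E-box was searched as CACGTG and a variant that differs in the last letter as CACGTT. The D-box was searched as TTATGTAA and the cAMP response element as TGACGTCA. Counted from the listed start as position 0, the Per1 window held an E-box from -166 to -161 and a half-site on the opposite strand from -137 to -132. The Cry1 window held an E-box from -60 to -55 and an E-box variant on the opposite strand from -79 to -74. The Cry2 window held an E-box variant on the opposite strand from -166 to -161, and the Per3 window held D-boxes from -205 to -198 and from -158 to -151. The second Per1 window (chr11:69099902-69100201) held none of these letters, and the REV-ERB and ROR core and the cAMP response element were in none of the 5 windows. Of all 32851 promoter windows, 16.3% held the half-site, 2.61% the REV-ERB and ROR core, 7.15% the E-box, 4.68% its variant, 0.938% the D-box and 1.79% the cAMP response element. A match describes these letters only and is not a site of binding.

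Before the values of single genes, a few facts of the lists set their scale. The number of fragments covering each peak summit was recovered from the authors' fold enrichment and -log10 p. The median peak had 255 bp and 7 summit fragments in the vasostatin-2 list, against 294 bp and 8 fragments in the PBS list. The uniform background in these values put the depth of the vasostatin-2 library at 1.32 times that of the PBS library. Local density is given below as the background the peak caller took around a peak, the peak's own fragments included, divided by the lowest background of its library. It states how many times more fragments lay in that neighbourhood, taken as 10000 bp, than in the genome at large. Local density and relative depth both assume that the background came from the NR1D1 library itself and not from its IgG library. The sources used here do not state which was used.

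Peaks of the vasostatin-2 library lay at 4 of the 5 genes and peaks of the PBS library at all 5, and at 4 genes a peak was found in both lists. In the same windows 49.96% of 21887 protein-coding genes had a vasostatin-2 peak, 49.2% a PBS peak and 26.3% a PBS peak shared with the other list. The median span was 43375 bp over the 5 genes, from 14858 bp at Per1 to 53355 bp at Cry1, against 17169 bp for all protein-coding genes. The part of gene length in these shares was not tested. Per1 had 3 vasostatin-2 and 4 PBS peaks, Per2 1 and 2, Per3 0 and 1, Cry1 1 and 2, and Cry2 3 and 3. The mean per gene was 1.6 and 2.4, against 0.862 and 0.874 over all protein-coding genes. Of all those genes 8.97% had 3 or more vasostatin-2 peaks and 9.78% had 3 or more PBS peaks. Gene length was not taken into account here either. Together the 8 vasostatin-2 peaks (95% exact Poisson interval 3.45 to 15.8) covered 2924 bp, and the 12 PBS peaks (6.20 to 20.96) covered 5002 bp. These intervals treat each peak as an independent event, and 4 of the sites are in both lists. They therefore do not test a difference between the counts.

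**Figure D1:**
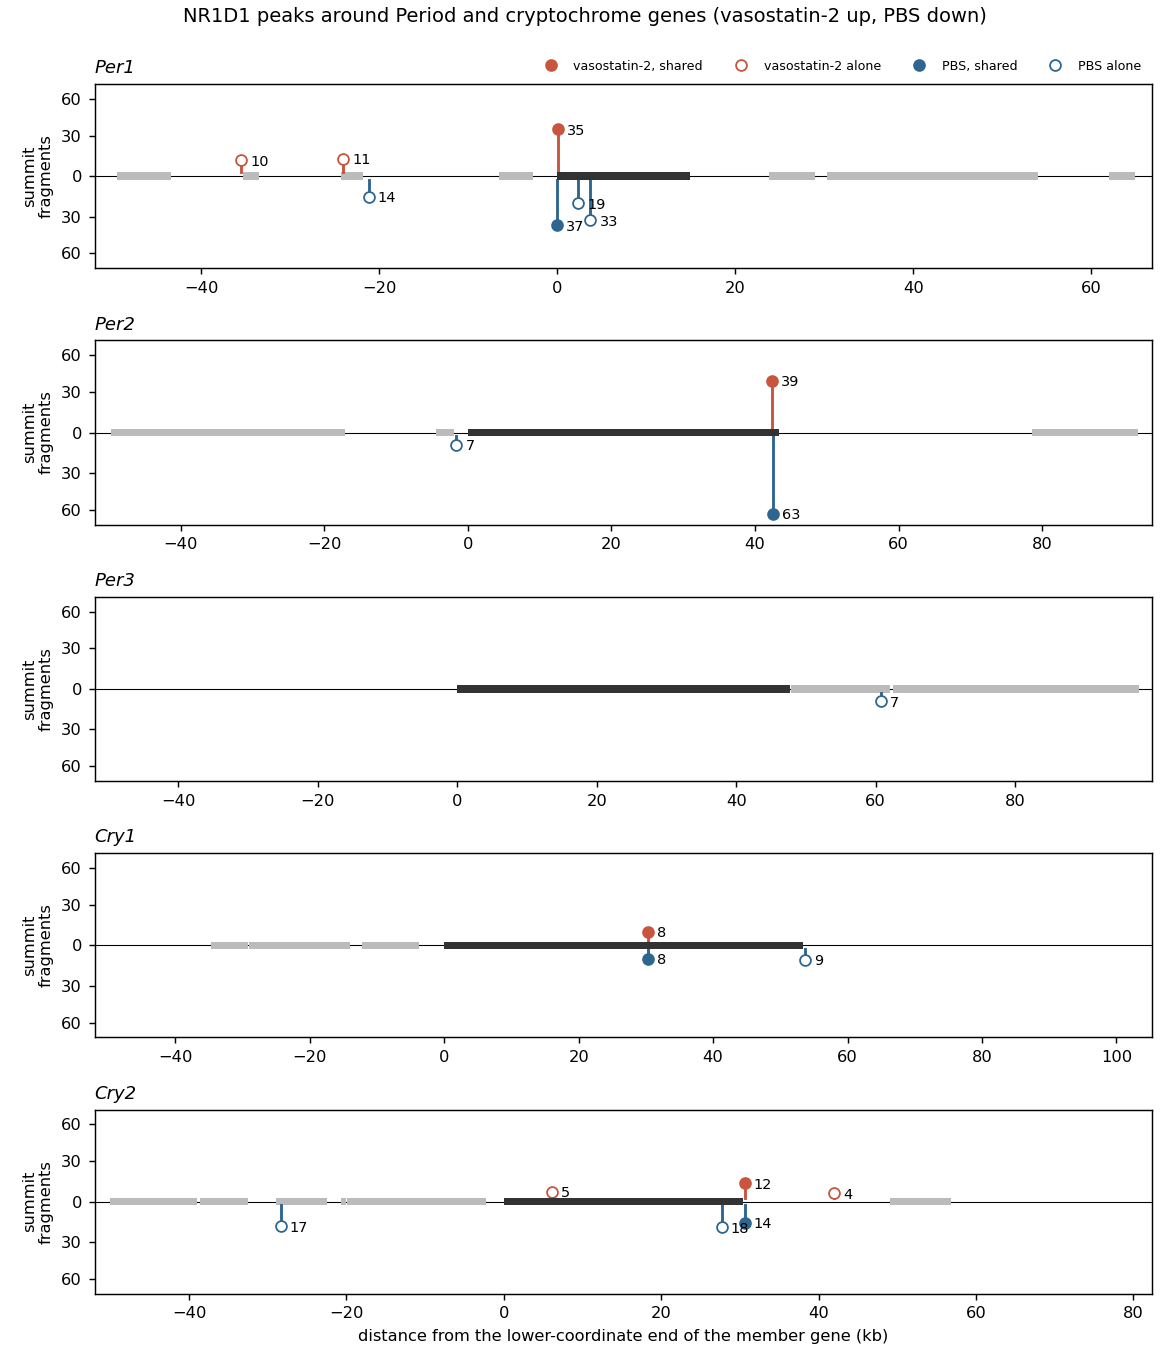
Fragments at the summit of each NR1D1 peak (vertical axis, vasostatin-2 upward and PBS downward, the number beside each point) against the distance in kb from the lower-coordinate end of the gene, for Per1, Per2, Per3, Cry1 and Cry2. Black bars are the named gene and grey bars other protein-coding genes; filled points are peaks found in both lists. The tallest pair is inside Per2, with 39 fragments in the vasostatin-2 library and 63 in the PBS library, and the span of Per3 holds no peak.

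Many of these peaks belonged to a neighbouring gene by position, and this was so for 3 of 8 vasostatin-2 peaks and 4 of 12 PBS peaks. The remaining 5 vasostatin-2 and 8 PBS peaks had their summit inside a Period or cryptochrome gene or had one of its ends as the nearest protein-coding gene end. They are described gene by gene below, and the peaks at neighbours are given in the closing section. A peak was called shared when it overlapped a peak of the other list by at least 1 bp, and 4 of the 8 vasostatin-2 peaks and 4 of the 12 PBS peaks were, against 30.05% of all vasostatin-2 and 35.6% of all PBS peaks.

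Per2, the clock repressor whose loss disturbs the mouse rhythm most among the Period genes, had the strongest peak of the group in both libraries. Per2 (gene ID 18627) spans chr1:91415977-91459351. The vasostatin-2 peak at chr1:91457898-91458703 was 806 bp wide with 39 summit fragments, 11.1-fold enrichment and a -log10 q of 27.1. The PBS peak at chr1:91458054-91459016 was 963 bp wide with 63 summit fragments, 13.9-fold enrichment and a -log10 q of 49.6. The peaks overlapped by 650 bp and their summits lay 64 bp apart, inside the gene and 985 and 921 bp from its higher-coordinate end. Among peaks of its own list the vasostatin-2 peak ranked 73 by fragments and 137 by fold, and the PBS peak 57 and 69. Local density was 6.85 in the vasostatin-2 library and 11.6 in the PBS library.

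Per1, an immediate early gene of light and cAMP signals as well as a clock gene, was the gene with the most PBS peaks of its own. Per1 (gene ID 18626) spans chr11:69095108-69109965 on the plus strand. A shared peak stood at the 5′ end of that span, with the vasostatin-2 summit at -3771 and the PBS summit at -3935 relative to the first start in the promoter table. The vasostatin-2 peak at chr11:69094764-69095474 was 711 bp wide with 35 summit fragments, 7.31-fold enrichment and a -log10 q of 16.8. The PBS peak at chr11:69094765-69095314 was 550 bp wide with 37 summit fragments, 5.02-fold enrichment and a -log10 q of 11.9. The left edges of the peaks differed by a single base, the whole PBS peak lay within the vasostatin-2 peak, and the summits were 164 bp apart.

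The PBS list held further Per1 peaks downstream of the shared site, and the vasostatin-2 list did not. The PBS peak at chr11:69098651-69098925 (275 bp wide) had 33 summit fragments, 4.34-fold enrichment and a -log10 q of 8.72. It covered 227 bases of the first Per1 promoter printed above, with its summit at -140, between the E-box and the half-site and 3 bases from the half-site. A smaller PBS peak at chr11:69097272-69097518 (247 bp wide) had 19 summit fragments, 2.62-fold enrichment and a -log10 q of 1.65. Both lay inside the gene span and upstream of the listed starts. Local density at these peaks and at the shared PBS peak was 22.0, 21.4 and 21.2, so that all of them stood in a neighbourhood dense in fragments. Their summits lay at -140, -1535 and -3935, so the neighbourhoods of 10000 bp overlap and each holds the fragments of the other peaks. The 3 values are therefore not separate measurements. The vasostatin-2 density at the shared peak was 10.3. The rank of the Per1 peaks differed by measure. Within the PBS list the shared peak ranked 131 by fragments and 4393 by fold and the promoter peak 164 and 5970, whereas the vasostatin-2 peak ranked 84 and 1021 in its own list.

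Few PBS peaks as tall as that at the Per1 promoter lacked a counterpart. Of 427 PBS peaks with 21 to 49 summit fragments, 92.0% (95% Wilson interval 89.1 to 94.2) had a vasostatin-2 counterpart, and 34 did not. At the depth of the vasostatin-2 library its 33 fragments (95% exact Poisson interval 22.7 to 46.3) would correspond to 43.5. This conversion of PBS fragments, here and below, scales for depth alone. Of all 2626 shared pairs 83.9% had fewer vasostatin-2 fragments than it gives, with a median log2 ratio of -0.62. Taking the background of the nearest vasostatin-2 peak, whose summit was 3631 bp away, the lowest -log10 p of the list (4.07) is reached with 13 fragments. At the same relative density as in the PBS library it is reached with 21. Fewer fragments than this at the promoter would have left no peak, and the file holds no value there, so the vasostatin-2 level at the Per1 promoter is known only to have stayed below the calling threshold.

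Per3, the Period gene that is dispensable for rhythm in mice, had no peak inside its span or at its ends in either list. Per3 (gene ID 18628) spans chr4:150997018-151044707 on the minus strand. The only peak in its window was a PBS peak at chr4:151057707-151058087 with 7 summit fragments, 5.52-fold enrichment and a -log10 q of 3.91. It lay 13058 bp from the nearer end of Per3 and 188 bp from an end of Vamp3, which encodes a vesicle fusion protein. The nearest vasostatin-2 summit was 88321 bp from it. Of the 4 genes with a listed promoter, Per3 was the one whose window held D-boxes. D-boxes were in 2 (0.109%) of the 1834 promoters under a vasostatin-2 peak, 7 (0.238%) of the 2944 under a PBS peak and 301 (1.02%) of the 29417 under neither. The part of base composition in these shares was not tested.

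Cry1, the cryptochrome with the stronger repressor activity, had a small peak deep inside the gene in both libraries. Cry1 (gene ID 12952) spans chr10:85131700-85185054 on the minus strand. The vasostatin-2 peak at chr10:85161942-85162150 was 209 bp wide with 8 summit fragments, 5.49-fold enrichment and a -log10 q of 3.84. The PBS peak at chr10:85161942-85162207 was 266 bp wide with 8 summit fragments, 5.67-fold enrichment and a -log10 q of 4.19. Both peaks began at the same base, the summits were 26 bp apart, and they lay 23068 and 23094 bp downstream of the listed start. Few peaks this low had a counterpart: of peaks with 6 to 8 summit fragments 22.7% in the vasostatin-2 list and 23.2% in the PBS list did. The reference used here gives no exons and no sequence at this place, so whether the peak holds a REV-ERB and ROR response element was not tested.

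At the Cry1 promoter a peak was listed for the PBS library alone. The PBS peak at chr10:85185109-85185370 (262 bp wide) had 9 summit fragments, 6.003-fold enrichment and a -log10 q of 4.81, with the summit at -276. It covered 196 bases of the promoter printed above, the E-box and the E-box variant included. The nearest vasostatin-2 summit was the one inside the gene, 23344 bp away. A counterpart was found for 45.4% of the 1692 PBS peaks with 9 to 12 fragments. The 9 fragments would correspond to 11.9 at the depth of the vasostatin-2 library, where 6 would be enough for a peak at the same relative density.

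Cry2, the second cryptochrome, had a shared peak at its promoter. Cry2 (gene ID 12953) spans chr2:92403646-92434085 on the minus strand. The vasostatin-2 peak at chr2:92434156-92434463 was 308 bp wide with 12 summit fragments, 5.08-fold enrichment and a -log10 q of 4.13. The PBS peak at chr2:92434131-92434469 was 339 bp wide with 14 summit fragments, 4.74-fold enrichment and a -log10 q of 4.27. The summits were 1 bp apart, at -213 and -214, and the vasostatin-2 peak lay wholly within the PBS peak. The peaks covered 164 and 189 bases of the promoter printed above, and the E-box variant was within both.

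Each list also held a Cry2 peak that the other did not. A PBS peak at chr2:92431221-92431546 (326 bp wide) had 18 summit fragments, 5.69-fold enrichment and a -log10 q of 6.96, and was the taller PBS peak of the gene. It lay 2734 bp downstream of the listed start, inside Cry2 and inside the lncRNA gene D930015M05Rik, which overlaps it. A counterpart was found for 66.7% of the 1032 PBS peaks with 13 to 20 fragments, and the nearest vasostatin-2 summit here was 2947 bp away, at the promoter. At the background of that vasostatin-2 peak 8 fragments would have been enough for a call, and at the same relative density as in the PBS library 11. The vasostatin-2 list alone had a peak at chr2:92409550-92409765 (216 bp wide) with 5 summit fragments and 4.34-fold enrichment, 24322 bp downstream of the listed start. The 5 fragments would correspond to 3.79 at the depth of the PBS library, where 4 would be needed for a peak at the same relative density. Of vasostatin-2 peaks with 4 to 5 fragments 5.35% had a counterpart.

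**Figure D2:**
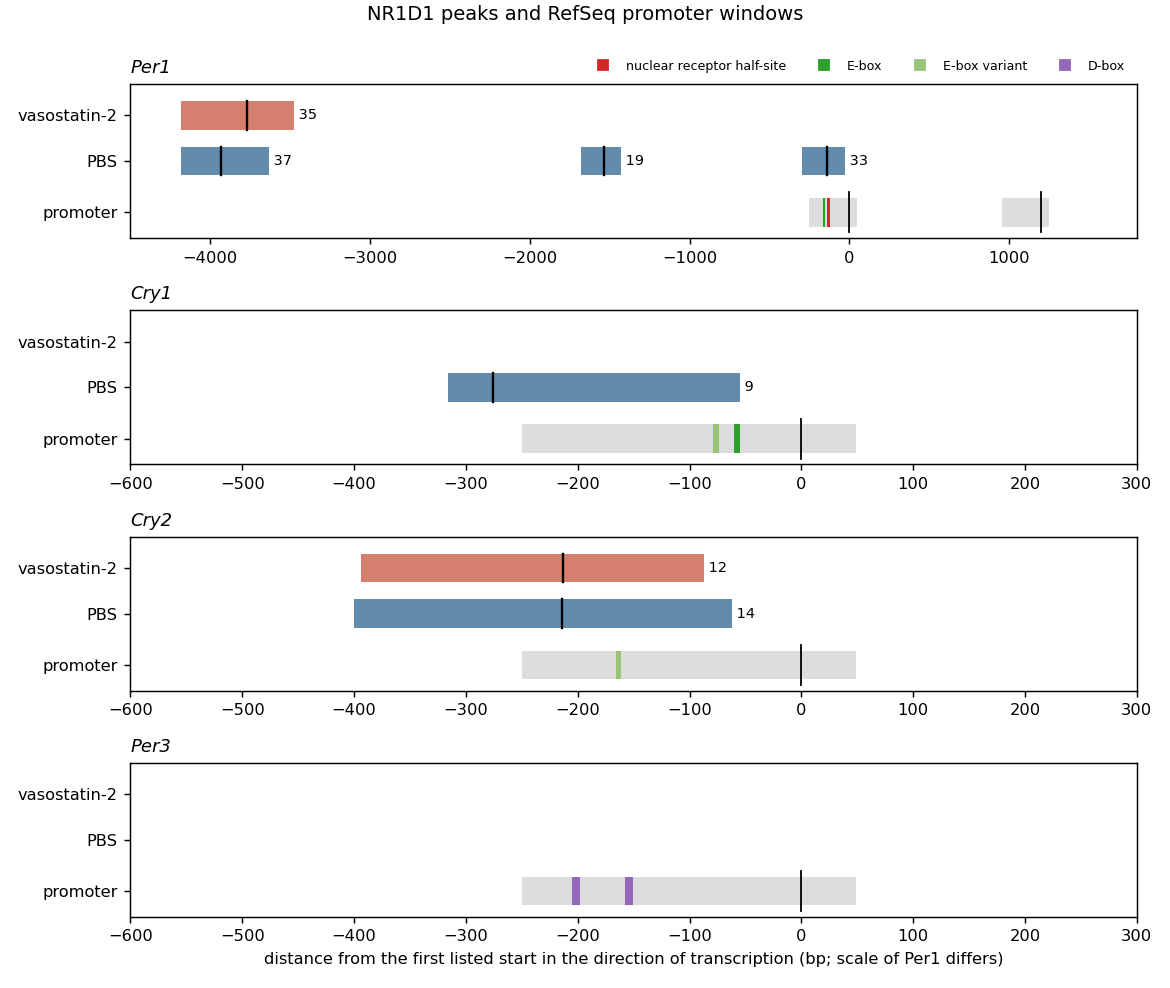
Extent of the NR1D1 peaks (coloured boxes, vasostatin-2 above PBS, with the summit as a black line and its fragments beside the box) and the RefSeq promoter windows (grey, with the listed start as a black line and motifs as coloured marks) against the distance in bp from the first listed start, for Per1, Cry1, Cry2 and Per3; the Per1 panel has a longer scale. Both lists cover the Cry2 promoter, with 12 and 14 fragments, while the PBS list alone covers those of Per1 (33 fragments) and Cry1 (9).

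Vasostatin-2 peaks covered part of 1 and PBS peaks part of 3 of the 5 promoter windows of these genes. Of all 32851 windows 5.58% were covered by a vasostatin-2 peak and 8.96% by a PBS peak. Covered promoters were richer in G and C, with a median of 63.7% in both lists against 52.7% for all windows, and the windows of Period and cryptochrome genes had a median of 70.3%. The nuclear receptor half-site was in 9.92% of promoters under a vasostatin-2 peak, 10.1% of those under a PBS peak and 16.98% of those under neither. The E-box was in 9.11%, 10.3% and 6.81%, the E-box variant in 5.78%, 6.22% and 4.53%, and the REV-ERB and ROR core in 1.91%, 1.63% and 2.72%. The cAMP response element was in 4.20%, 4.79% and 1.46%. No test of these shares was made. The base composition moves with these shares, and its part in them was not tested.

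At the shared sites the summit fragments were compared after division by the relative depth. At Per2 the 39 vasostatin-2 fragments came to 29.6 at the PBS depth, against 63 in the PBS library, a log2 ratio of -1.09 (95% interval from the exact binomial -1.71 to -0.49). At Cry2 the log2 ratio was -0.62 (-1.86 to 0.60), at Per1 -0.48 (-1.19 to 0.23) and at Cry1 -0.40 (-2.01 to 1.21). All 4 ratios were below 0, as were those of 83.9% of all 2626 shared pairs, whose median was -0.62. The interval lay wholly below 0 at Per2 and included 0 at Per1, Cry1 and Cry2. All 4 intervals included the median of all pairs, so none of these sites was told apart from the other shared pairs by counting error. Of all shared pairs 20.4% had a lower ratio than Per2, and 49.1%, 59.8% and 60.2% had a lower ratio than Cry2, Per1 and Cry1. Such ratios set a library against another library, not a treatment against its control.

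The authors' fold enrichment ordered the libraries differently from the fragments at Per1 and Cry2. The log2 ratio of the folds (vasostatin-2 over PBS) was 0.54 at Per1 and 0.10 at Cry2, but -0.33 at Per2 and -0.05 at Cry1. Fold enrichment divides the summit by its local background, after a constant is added to each. In fragments, that background was lower in the vasostatin-2 library at Per1, Per2 and Cry2 and higher at Cry1 (0.639 against 0.588). Relative to the rest of the genome it was lower in the vasostatin-2 library at all 4 sites. Local density was 10.3 in the vasostatin-2 library against 21.2 in the PBS library at Per1, 4.09 against 6.98 at Cry2, 6.85 against 11.6 at Per2 and 1.68 against 1.89 at Cry1. On the log2 scale these differences were -1.04, -0.77, -0.76 and -0.18. The median of all shared pairs was -0.43, and 80.05% of pairs were below 0. At Per1 the PBS neighbourhood also takes in the PBS peaks downstream of the shared site. The fold was lower in the vasostatin-2 library at 2 of the 4 sites and at 61.9% of all pairs. A pair with fewer depth-scaled fragments but a higher fold in the vasostatin-2 library, as at Per1 and Cry2, was found in 579 of 2626 cases (22.05%).

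**Figure D3:**
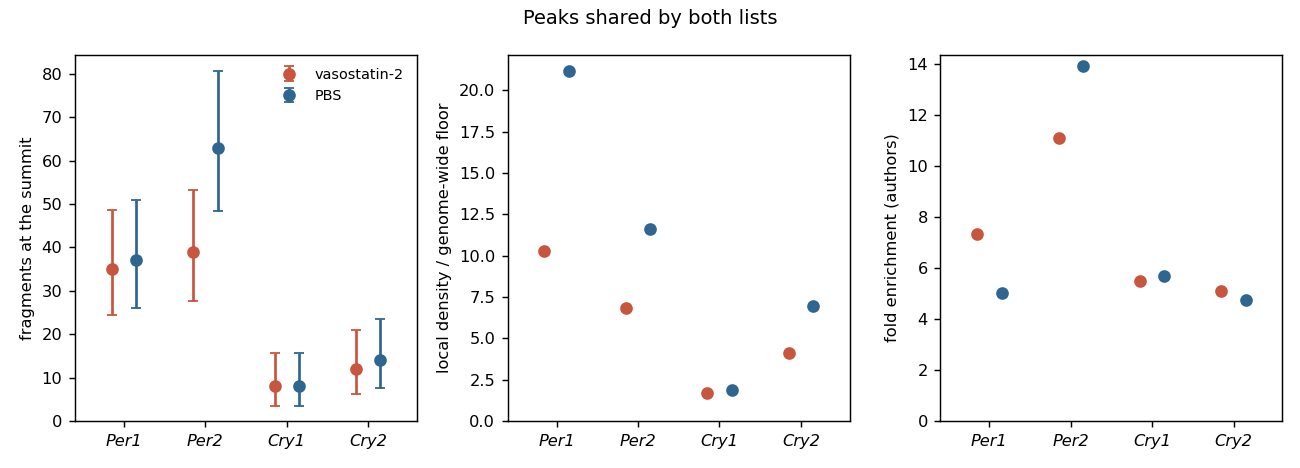
Fragments at the summit with exact Poisson 95% intervals (left), local density over the lowest background of the library (middle) and the authors' fold enrichment (right) for the peaks of Per1, Per2, Cry1 and Cry2 found in both lists, vasostatin-2 left of PBS at each gene. At Per1 the fragments are close (35 and 37), the density is 10.3 and 21.2, and the fold is 7.31 and 5.02.

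The shared peaks had a median width of 510 bp in the vasostatin-2 list and 445 bp in the PBS list, and the peaks found in 1 list alone 220 and 293 bp. The unshared vasostatin-2 peaks had 4 to 11 summit fragments and the unshared PBS peaks 7 to 33. Of 4 unshared vasostatin-2 peaks 2 had at least 8 fragments, against 30.8% of all unshared vasostatin-2 peaks, and of 8 unshared PBS peaks 6 did, against 37.4% of all unshared PBS peaks. Width and fragments did not always go together, as the PBS peak at the Per1 promoter was 275 bp wide with 33 fragments and that inside Per2 963 bp with 63, while a PBS peak near Tmem107 was 849 bp wide with 14.

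**Figure D4:**
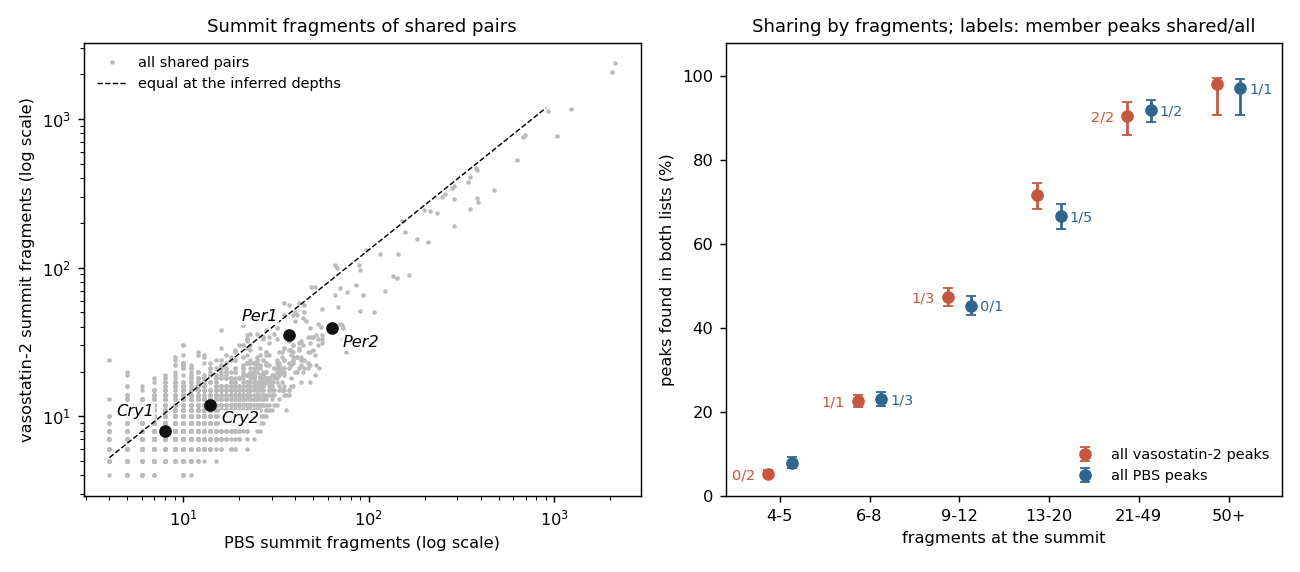
Left, summit fragments of all 2626 shared pairs (grey) and of the pairs at Per1, Per2, Cry1 and Cry2 (black) on log scales, with the dashed line where both libraries would be equal at a relative depth of 1.32; right, percent of all peaks found in both lists by summit fragments, with Wilson 95% intervals and, as labels, how many of the peaks around Period and cryptochrome genes were shared. All 4 black points lie below the dashed line, and sharing of all peaks reached 92.0% for PBS peaks of 21 to 49 fragments.

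Among 22 other clock genes 19 had a vasostatin-2 peak, 17 a PBS peak and 14 a shared peak within 50 kb, against the 49.96%, 49.2% and 26.3% of all protein-coding genes given above. The spans of these 22 genes were not compared with those of all genes, and the part of gene length was not tested. The activator Arntl (BMAL1) had a shared peak, and Arntl2, Clock and Npas2 did not. Shared peaks were also found for the nuclear receptor genes Nr1d1, Nr1d2 and Rora, for the E-box antagonists Bhlhe40, Bhlhe41 and Ciart, and for the D-box factors Dbp, Tef and Nfil3. Of 6 genes for kinases, ubiquitin ligases and partners of PER and CRY, 4 had one, namely Csnk1d, Fbxl21, Btrc and Timeless. The strongest shared peak lay 19898 bp outside Csnk1d, 18370 bp outside Bhlhe41, 17571 bp outside Timeless and 15093 bp outside Btrc. At the others it lay inside the gene or at most 442 bp outside it. Which gene the distant peaks lay nearest to was not examined. In the PBS library the summit at Per2 (63 fragments) was higher than the strongest shared summit of any of these 14 genes, the highest being 48 at Tef and, 15093 bp outside the gene, at Btrc. In the vasostatin-2 library 39 fragments were reached both at Per2 and at the site near Btrc.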

How the data were processed

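CUT&Tag libraries of NR1D1, 1 after vasostatin-2 and 1 after PBS, were read as peak lists of 10 columns without a header. Trimmomatic 0.39, BWA 0.7.17, MACS2 2.2.7.1 and build mm10 are named in the submitters' processing notes without roles or settings. The deposited fold enrichment is a ratio, the summit over its local background, with 1 added to each. Each peak also has the deposited -log10 p-value and q-value of its summit. The deposited score is the -log10 q times 10, rounded down, and was not used. All of these are the values of the authors, used within their own list. Coordinates are written from 1.

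The whole number of summit fragments and the background that give the deposited fold and -log10 p under the Poisson formula of the peak caller were sought. For 100% of peaks the -log10 p was met within 0.0005, and 4 PBS peaks had a close second solution. On 2000 peaks simulated with that same formula 100% were recovered, which checks the computation only. The simulated peaks did not include any as low over its background as the PBS peak of 19 fragments at Per1. All 300 simulated overlaps were right. The background floor was 0.381 fragments in the vasostatin-2 and 0.310 in the PBS library. Above it the background moved in steps (100% whole within 0.1), read as fragment ends over 10000 bp, an assumed setting, with mean fragments of 183 and 196 bp; floor and step gave the relative depth. The total of fragments is not given in the sources used here. Shared pairs are mutual best partners by summit distance.

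Genes and promoters came from RefSeq tables of GRCm38.p6, in which all 5 genes and all 22 other clock genes were found. The genes, lists and most settings were chosen with earlier results of these data known. The 5 genes were named in every case, neighbours where a peak lay closer to them, and clock genes with a shared peak; the clock genes without one and the tallest sites were named after their values were seen. Alternatives for window, threshold, overlap and scaling are in the closing section. Python 3.11.15, NumPy 2.4.6, SciPy 1.17.1, pandas 2.3.3 and matplotlib 3.10.9 were used.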

Additional observations from a re-analysis of the deposited data

How the results depend on the processing

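With windows of 10 or 3 kb the vasostatin-2 count was 5 peaks and the PBS count 9, and with 100 kb they were 12 and 16. In the 10 and 3 kb windows the peaks of each list lay at 4 of the 5 genes, since the PBS peak near Per3 fell outside. With a -log10 q of at least 5 the counts were 2 vasostatin-2 and 6 PBS peaks, and the shared peaks came to 2 in each list, at Per1 and Per2. Counting peaks at the genes themselves, an alternative chosen after seeing the data, gave 5 and 8. With at least 8 fragments the counts were 6 and 10. The shared peaks stayed at 4 with reciprocal overlap, with summits within 200 bp, with a gap of 500 bp and with a 10 kb window. In every one of these settings the PBS count was the higher, except for the shared peaks, which were equal. These settings cut the same lists again and are not separate support. Over all protein-coding genes the mean number of vasostatin-2 and PBS peaks per gene was 0.364 and 0.373 at 10 kb. It was 0.278 and 0.286 at 3 kb, and 1.45 and 1.46 at 100 kb. For the stricter q and fragment cuts no value over all genes was computed. The log2 ratio at shared sites turned positive when folds replaced fragments at Per1 (0.54) and Cry2 (0.10), and moved to -0.33 at Per2. The fold depends on the local background, which is given in the report as local density. Without depth scaling it was -0.69 at Per2 and 0 at Cry1, and scaling by the background floor alone, chosen after seeing the data, gave -0.99 at Per2. Most peaks here have under 20 fragments, which limits any count of peaks in a single list. No paired analysis was possible because each treatment has 1 library.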

Other observations

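Peaks in the windows that lay closer to a neighbouring gene had 4 to 17 summit fragments. Beside Per1, the vasostatin-2 list had a peak 210 bp from an end of Borcs6 (10 summit fragments, 4.44-fold) and one inside Tmem107, 216 bp from its end (11 fragments, 4.08-fold). The PBS list had a peak 603 bp from an end of Tmem107 (14 fragments, 5.37-fold), whose summit was 2871 bp from that vasostatin-2 summit. The 11 vasostatin-2 fragments would correspond to 8.34 at the PBS depth, where 8 would be needed at the same relative density. At the background of the PBS peak 9 would be needed. The 14 PBS fragments would correspond to 18.5 at the vasostatin-2 depth, where the same 2 settings need 10 and 9. Beside Per2, the PBS list had a peak 350 bp from an end of Hes6, a bHLH repressor gene (7 fragments, 4.34-fold). Beside Cry2, the PBS list had a peak inside Pex16, a gene for peroxisome assembly, with 17 fragments and 7.78-fold enrichment. The vasostatin-2 list had an intergenic peak of 4 fragments and 3.57-fold, 7124 bp from an end of Slc35c1 and 11555 bp from Cry2. None of these peaks was shared.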
